A study of Bos taurus with 179 samples.

Results

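CALB1 and CALM2, 2 calcium-binding genes of the growing bovine oocyte, are described here out of 21218 gene IDs in the count table. CALB1 (ENSBTAG00000015924) encodes calbindin, a cytosolic protein that binds calcium and slows its spread, and CALM2 (ENSBTAG00000001575) encodes calmodulin, the calcium sensor that switches kinases, phosphatases, pumps and channels on when calcium rises. Each symbol was paired with its ID in the supplementary gene lists of the study, CALB1 as a gene of oocytes past the smallest size group and CALM2 as a gene common to all groups. CALB1 was chosen by its measured counts, which are absent below 60 μm, and CALM2 by its counts in most oocytes of every group, so every comparison of CALB1 with the <60 μm oocytes, and the presence of CALM2 in all groups, is given as a description, without a test.

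Single oocytes of Bos taurus were isolated from abattoir ovaries, freed of surrounding cells by pipetting, measured, and sequenced from their polyadenylated mRNA after amplification. Fully grown oocytes were aspirated from surface follicles, while growing ones were released by slicing the cortex in medium with cilostamide and passed through filters. The route of each oocyte is not given in the labels, and its part in differences between sizes was not tested. The oocytes that passed the quality filter of the study fell into 8 size groups, <60 μm (21 oocytes), 60-69 μm (25), 70-79 μm (23), 80-89 μm (24), 90-99 μm (21), 100-109 μm (18), 110-119 μm (19) and >120 μm (14). No treatment was compared, and no genotype or age is given in the labels. The labels name no animal, so oocytes of 1 ovary or animal cannot be told apart. Unless single oocytes are named as units, p-values measure the disagreement between sums of the 2 library batches described next. They do not measure the spread between oocytes or animals. Replicate 1 (97 oocytes, reads of 150 bp) and replicate 2 (68 oocytes, reads of 75 bp) were library batches, and the <60 μm group held 3 oocytes of replicate 1 and 18 of replicate 2. An oocyte had between 277126 and 8038061 counts in all (median 1763520). No molecular identifiers were used, so reads copied in amplification cannot be told apart, and the 3-count limits below cover the counting of reads only. The intervals of shares cover the sampling of oocytes, taken as independent. The interval of a fold change covers the disagreement between sums.

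Calcium signals have a long history in egg biology. Waves of calcium released from internal stores at fertilisation activate the egg through calmodulin and its dependent kinases, and the stores, pumps and channels that make such waves are laid down while the oocyte grows. Calmodulin is encoded by several genes whose proteins are identical, while calbindin is a buffer with its own gene.

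The labelled cell type was checked against its markers. The 5 oocyte markers that could be paired with an ID of 10 listed, among them BMP15 and BTG4, summed to medians between 4653 and 9072 CPM (counts scaled to library size) in the 8 groups. The 4 granulosa and theca symbols that could be paired of 8 listed had a median summed level of at most 0.825 CPM in any group, and 3 endothelial genes had a median of 0 in all. The 6 stroma genes summed to a median of 10.5 CPM below 60 μm, the lowest of the groups, 19.5 CPM at 60-69 μm and 28.2 CPM at 70-79 μm, the highest, with COL1A1, COL3A1 and DCN at a median of 0 and COL1A2, ACTA2 and CNN1 at medians of 4.52, 9.32 and 4.65 CPM. Of the 4 blood and immune genes, CSF1R had counts in all oocytes and CD14, CD68 and CD4 had a median of 0. Their summed median was 53.3 CPM below 60 μm and 91.9 CPM at 60-69 μm, so that both lists were higher over the step at which CALB1 counts appeared. Their part in that result was not tested.

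Some libraries stood apart in the calmodulin counts. A further gene of the table, CALM (ENSBTAG00000032705), is listed in the RefSeq gene table with CALM2 as a synonym, and how reads that fit both were counted is not stated. In replicate 2 CALM took at most 0.903% of the counts of CALM plus CALM2, whereas 89 of the 97 oocytes of replicate 1 gave 3.76% to 13.2%, so that the 2 ranges did not overlap. The other 8 oocytes of replicate 1 gave 0% to 1.15%, at or near the range of replicate 2, against their label. They belonged to the 60-69 (4), 70-79 (2) and 80-89 μm (2) groups, had 294744 to 1121180 counts, and had CALM2 levels of 387.2 to 1305 CPM (median 565) against 843 to 4863 CPM (median 1405) in the other 41 replicate 1 oocytes of these groups. For CALB1 and CALM2, the shares, mean levels and fold changes that rest on those groups were also computed without these 8 oocytes.

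**Figure D1:**
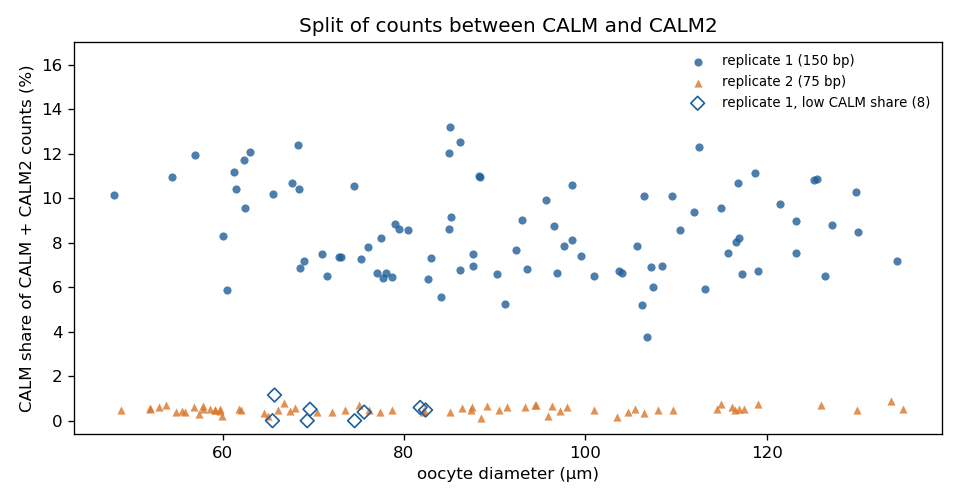
Share of CALM in the counts of CALM plus CALM2 (%, vertical) against oocyte diameter (μm, horizontal), each point 1 oocyte, coloured by replicate, with the 8 replicate 1 oocytes of low share as open diamonds. Replicate 2 stays at or below 0.903%, and 89 oocytes of replicate 1 lie between 3.76% and 13.2%.

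CALB1, the calcium buffer, went uncounted in the smallest oocytes and was counted in most of the larger ones. No read was assigned to it in any of the 21 oocytes below 60 μm, out of 57341117 counts, and none in the 5 further <60 μm oocytes that the quality filter of the study left out. The level in this group, taken over its pooled counts, is limited to 0.0523 CPM (3 counts). These oocytes had 1188219 to 6270510 counts with a median of 2563430, and the median was 923622 in the 100-109 μm group, where all oocytes had CALB1 counts. The part of depth in the CALB1 counts was not tested.

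The first counts appeared just above 60 μm. The 10 largest oocytes of the <60 μm group, from 56.95 to 59.91 μm, had none, and 6 of the 10 smallest oocytes of the 60-69 μm group, from 60 to 64.6 μm, had at least 1. The diameter cut that left the fewest oocytes on the wrong side was 61.67 μm, with 0 of 25 oocytes counted below it and 120 of 140 above it. The cut was 61.92 μm in replicate 1, with 14 of 97 oocytes on the wrong side, and 60.87 μm in replicate 2, with 6 of 68. Without the 8 oocytes of low CALM share it stayed at 61.67 μm. A stricter definition of at least 10 counts moved it to 84.98 μm, and expected counts at an equal depth of 250000 per oocyte moved it to 77.2 μm. With at least 10 counts the cut was also 84.98 μm in replicate 1, stayed at 60.87 μm in replicate 2, where cuts up to 90.9 μm did as well, and was 78.85 μm without the 8 oocytes of low CALM share.

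The share of oocytes with a CALB1 count went from 0% (0 of 21, exact Clopper-Pearson 95% interval 0% to 16.1%) to 64% at 60-69 μm (16 of 25, 42.5% to 82.0%) and 69.6% at 70-79 μm (16 of 23, 47.1% to 86.8%). It was 87.5% at 80-89 μm (21 of 24, 67.6% to 97.3%), 85.7% at 90-99 μm (18 of 21, 63.7% to 96.95%) and 100% at 100-109 μm (18 of 18, 81.5% to 100%). It was 94.7% at 110-119 μm (18 of 19, 73.97% to 99.9%) and 92.9% at >120 μm (13 of 14, 66.1% to 99.8%). From 60-69 μm on, the intervals of all neighbouring groups overlapped. Without the 8 oocytes of low CALM share the shares at 60-69, 70-79 and 80-89 μm were 61.9% (13 of 21), 71.4% (15 of 21) and 86.4% (19 of 22). The 3 replicate 1 oocytes below 60 μm, all without a count, allow a share of up to 70.8% by the same interval.

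**Figure D2:**
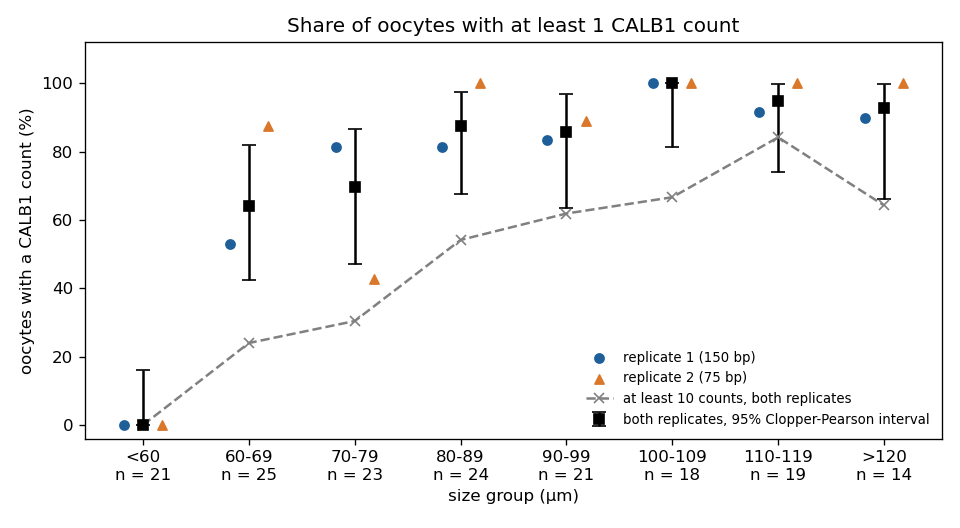
Percentage of oocytes with at least 1 CALB1 count (vertical) by size group (μm, horizontal, n given), black squares for both replicates with exact 95% intervals, coloured points for each replicate, and crosses joined by a dashed line for at least 10 counts. The share is 0% below 60 μm and 100% at 100-109 μm, and the stricter share goes from 0% to 84.2% at 110-119 μm.

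The replicates differed in the share of oocytes counted in the smallest groups with counts. At 60-69 μm, 9 of 17 oocytes of replicate 1 had 2 to 5 CALB1 counts each, and 7 of 8 oocytes of replicate 2 had 3 to 39, at median diameters of 65.5 and 65.57 μm. Pooled over oocytes this was 0.537 CPM in replicate 1 and 7.24 CPM in replicate 2. At 70-79 μm the order turned, with 13 of 16 oocytes of replicate 1 counted and 3 of 7 of replicate 2, at pooled levels of 5.10 and 3.21 CPM. Against the limit of 0.0523 CPM below 60 μm, the pooled level at 60-69 μm (2.62 CPM) was at least 50.1-fold higher, and within replicates, against their own limits, at least 2.41-fold in replicate 1 and at least 106-fold in replicate 2. In the replicate 1 comparison the <60 μm side held 3 oocytes. Without the 8 oocytes of low CALM share, 6 of 13 replicate 1 oocytes of 60-69 μm had a count, at a pooled level of 0.380 CPM, 1.71-fold the replicate 1 limit. The pooled level of both replicates was then 2.57 CPM, 49.2-fold the limit of 0.0523 CPM.

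Of the oocytes of 60 μm and more, 120 had a CALB1 count and 24 had none. The 4 smallest of them, at 60, 60.5, 61.26 and 61.5 μm, were also the 4 smallest oocytes of the 60-69 μm group. There were 3 each at 80-89 and 90-99 μm, and the last were 1 oocyte of 117 μm and 1 of 130.11 μm, both of replicate 1. For 15 of the 24 the 3-count limit of their own library lay below the median level of their size group, and for the other 9 it did not. Their median total count was 2034170, against 1694596 in the oocytes with a count.

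With both replicates together, the median CALB1 level was higher at every step from 60-69 to 110-119 μm and lower at >120 μm. In CPM scaled by trimmed mean of M-values (TMM), the lowest, median and highest oocytes were at 0, 0.782 and 19.0 CPM at 60-69 μm, 0, 2.11 and 13.9 at 70-79 μm, and 0, 6.52 and 53.7 at 80-89 μm. They were at 0, 11.9 and 38.9 CPM at 90-99 μm, 2.46, 17.3 and 53.7 at 100-109 μm, 0, 28.1 and 96.2 at 110-119 μm, and 0, 11.6 and 87.2 at >120 μm. The single oocytes of all groups from 60 μm up overlapped. Within replicates the order was broken, since the median went from 5.64 CPM at 60-69 μm to 0 at 70-79 μm in replicate 2 and from 9.42 CPM at 90-99 μm to 7.77 CPM at 100-109 μm in replicate 1.

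Mean levels were 3.19 ± 4.70 CPM (SD, n = 25) at 60-69 μm, 3.96 ± 4.57 (n = 23) at 70-79 μm, 10.9 ± 13.7 (n = 24) at 80-89 μm and 13.8 ± 10.8 (n = 21) at 90-99 μm. They were 20.0 ± 15.2 CPM (n = 18) at 100-109 μm, 34.3 ± 24.5 (n = 19) at 110-119 μm and 21.2 ± 25.3 (n = 14) at >120 μm. No 2 neighbours in the order of the means differed by more than their pooled SD over oocytes. Without the 8 oocytes of low CALM share the means of the 60-69, 70-79 and 80-89 μm groups were 3.01, 4.30 and 11.6 CPM.

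**Figure D3:**
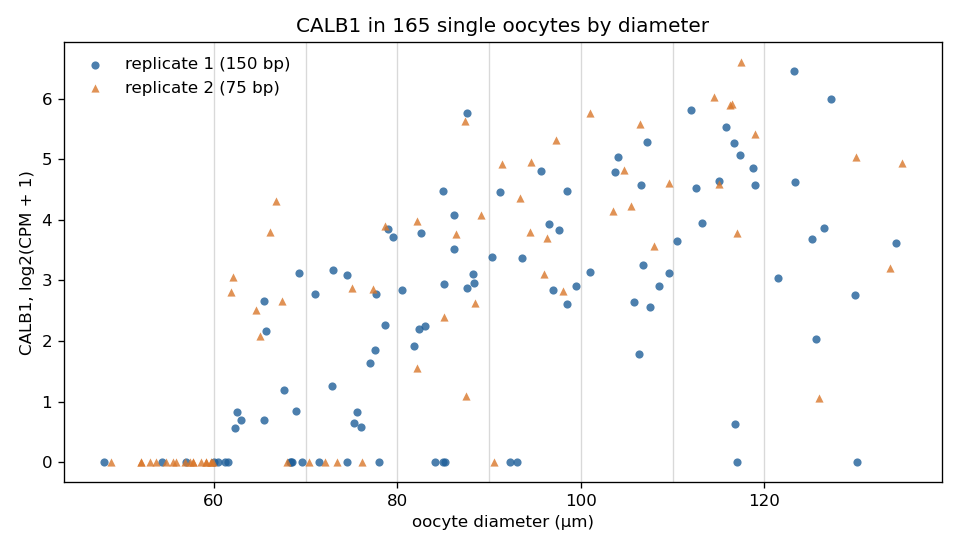
CALB1 as log2(CPM + 1) (vertical) against diameter (μm, horizontal), 1 point per oocyte, circles for replicate 1 and triangles for replicate 2, vertical lines at the size group limits. All oocytes below 61.67 μm lie at 0, and the points climb to a highest value of 96.2 CPM at 110-119 μm.

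Over the oocytes of 60 μm and more, with each replicate centred on its mean, log2(CPM + 1) of CALB1 had Pearson's r of 0.56 and Spearman's rho of 0.59 with diameter (n = 94 and 50 in the replicates). The r was 0.57 in replicate 1 and 0.53 in replicate 2, and it stayed at 0.56 when the 2 most extreme diameters were left out. These oocytes share batches, and possibly animals, and the values are a description.

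Between successive groups of 60 μm and more, counts were summed per size group and replicate (16 sums) and tested in 1 edgeR model (quasi-likelihood), p-values being adjusted after Benjamini and Hochberg over 14087 genes and called below 0.05. CALB1 was not called in any of the 6 comparisons, and the estimates below are log2 fold changes of the first group over the second. In 80-99 against 70-79 μm, the largest of them, the summed levels in replicate 1 were 5.24 CPM at 70-79 μm, then 9.30 CPM at 80-89 μm and 11.6 CPM at 90-99 μm, and those in replicate 2 were 3.02, 12.98 and 14.8 CPM. Both replicates were higher in the larger oocytes. The log2 fold change was 1.36 (SE 0.59, adjusted p = 0.862), and 0.98 and 2.20 within replicates 1 and 2. The background in this comparison was 0% of genes called, while 780 had an unadjusted p under 0.05 and DESeq2 called 17.

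In 110-119 against 100-109 μm the summed level went from 10.5 to 20.7 CPM in replicate 1 and from 30.2 to 55.2 CPM in replicate 2. It was higher in the larger oocytes in both replicates, by log2 differences of 0.97 and 0.87, and the fitted log2 fold change of 0.91 (SE 0.63, adjusted p = 0.376) did not pass the threshold. In >120 against 110-119 μm it went to 15.5 CPM in replicate 1 and 20.5 CPM in replicate 2, lower in both, with a log2 fold change of -0.91 (SE 0.64, adjusted p = 0.580).

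The other 3 CALB1 comparisons were smaller or turned with the replicate. At 70-79 against 60-69 μm the log2 difference was 3.30 within replicate 1 and -1.26 within replicate 2, and the fitted value of 0.68 (SE 0.68, adjusted p = 1) turned to -0.42 without the 60-69 μm sum of replicate 1 and to -0.47 without the 70-79 μm sum of replicate 1. At 90-99 against 80-89 μm it was 0.26 (SE 0.63, adjusted p = 1), turning to -0.12 without the 90-99 μm sum of replicate 1. At 100-109 against 80-99 μm it was 0.58 (SE 0.54, adjusted p = 0.608), with log2 differences of 0.02 within replicate 1 and 1.12 within replicate 2. The share of genes called was 0% in the first of these (488 genes at an unadjusted p under 0.05, 5 called by DESeq2), 0% in the second (469 genes, and 0 by DESeq2) and 0.497% in the third (0.433% higher, 0.0639% lower). Without the 8 oocytes of low CALM share the log2 fold change was 0.80 (SE 0.73) at 70-79 against 60-69 μm, 1.31 (SE 0.63) at 80-99 against 70-79 μm, 0.23 (SE 0.67) at 90-99 against 80-89 μm and 0.57 (SE 0.58) at 100-109 against 80-99 μm, and none was called. With DESeq2 no CALB1 adjusted p came below 0.05, and it gave none for >120 against 110-119 μm.

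**Figure D4:**
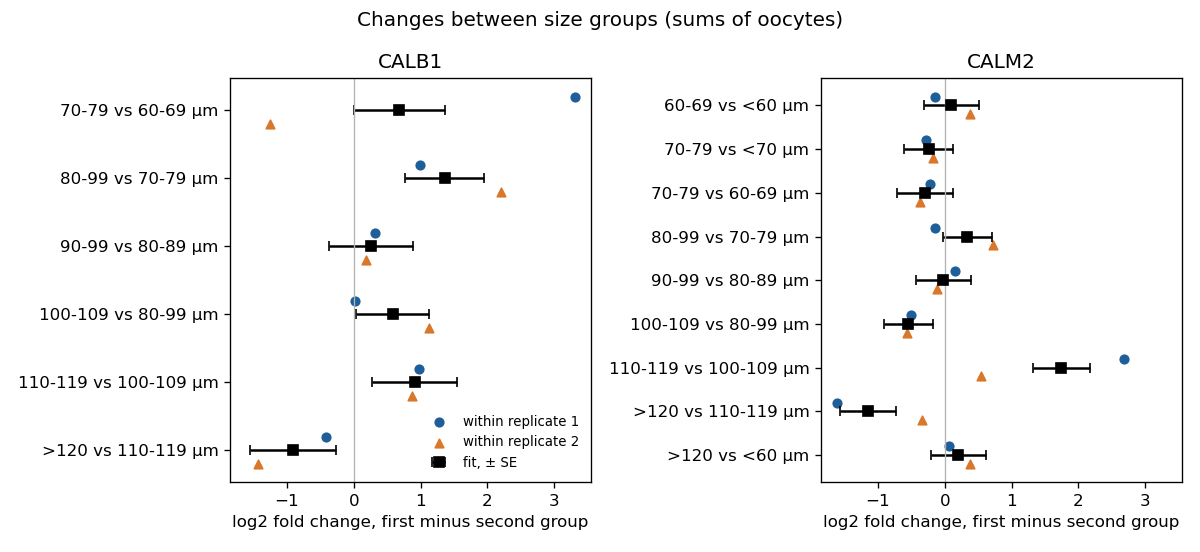
Log2 fold change (horizontal) of CALB1 in 6 comparisons and of CALM2 in 9 (vertical), black squares for the fit with its standard error, circles and triangles for the difference within replicates 1 and 2. CALM2 at 110-119 against 100-109 μm is the only point of the plot that passed the threshold, with 2.68 within replicate 1 and 0.54 within replicate 2.

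CALM2, the calmodulin gene, had counts in every oocyte. Its lowest, median and highest levels were 1196, 2631 and 4841 CPM below 60 μm, 444.9, 1700 and 5262 at 60-69 μm, 387.2, 1502 and 4863 at 70-79 μm, and 464.1, 1628 and 8310 at 80-89 μm. They were 828.9, 2037 and 6710 CPM at 90-99 μm, 747, 1443 and 4837 at 100-109 μm, 2285, 4595 and 14457 at 110-119 μm, and 1050, 2867 and 8351 at >120 μm. With both replicates together the 110-119 μm group stood highest on all 3 measures, and all groups overlapped. In replicate 2 alone the median and highest levels were 4189 and 8310 CPM at 80-89 μm, above the 4008 and 7857 CPM at 110-119 μm.

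In order of the mean over both replicates, CALM2 was at 1751 ± 1038 CPM (SD, n = 18) at 100-109 μm, 1778 ± 1075 (n = 23) at 70-79 μm, 2200 ± 1430 (n = 25) at 60-69 μm and 2383 ± 1878 (n = 24) at 80-89 μm. Above these came 90-99 μm with 2688 ± 1786 CPM (n = 21), <60 μm with 2763 ± 1096 (n = 21), >120 μm with 3307 ± 2025 (n = 14) and 110-119 μm with 6456 ± 4021 (n = 19). No neighbours in this order differed by more than their pooled SD. The order changed with the replicate. In replicate 1 110-119 μm was highest at 7875 CPM and >120 μm next at 3517 CPM, while in replicate 2 90-99 μm (4232 CPM) and 80-89 μm (4104 CPM) stood above 110-119 μm (4025 CPM), and 70-79 μm was lowest (2412 CPM). Without the 8 oocytes of low CALM share the means at 60-69, 70-79 and 80-89 μm were 2516, 1891 and 2519 CPM.

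**Figure D5:**
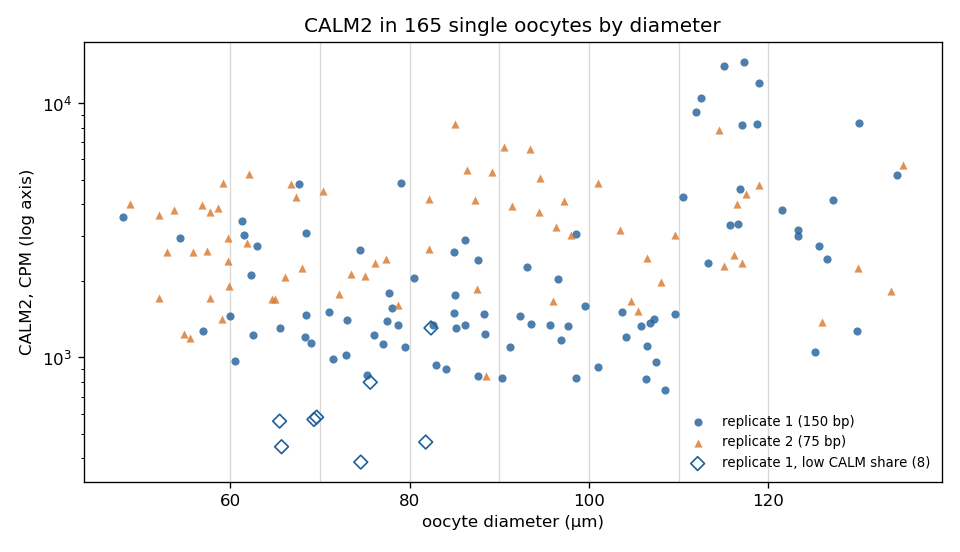
CALM2 level (CPM, vertical, log axis) against diameter (μm, horizontal), 1 point per oocyte, circles for replicate 1, triangles for replicate 2, and open diamonds for the 8 replicate 1 oocytes of low CALM share. The 12 replicate 1 oocytes of 110-119 μm, from 2344 to 14457 CPM, all lie above the 11 of 100-109 μm, from 747 to 1511 CPM.

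CALM2 was called in 1 of 9 comparisons, 110-119 against 100-109 μm, in which 3.88% of all genes tested were called (1.89% higher and 1.99% lower). In replicate 1 the lowest, median and highest oocytes were at 747, 1206 and 1511 CPM at 100-109 μm and 2344, 8246 and 14457 CPM at 110-119 μm, and all 12 oocytes of the larger group lay above all 11 of the smaller. In replicate 2 they were at 1527, 2466 and 4837 CPM and 2285, 4008 and 7857 CPM, and 1 of 7 larger oocytes lay above all 7 smaller ones. How many other genes kept the groups apart in replicate 1 is not given here. The fitted log2 fold change over the sums was 1.75, or 3.35-fold (SE 0.43, adjusted p = 0.0409), and the log2 differences within replicates were 2.68 and 0.54.

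This call depended on the replicate block and on the sums of replicate 1, as did the calls over all genes, of which 547 became 0 without the block. Without the replicate block the log2 fold change was 1.58 with an adjusted p of 0.835, without the 110-119 μm sum of replicate 1 it was 0.74 (adjusted p = 0.520), and without the 100-109 μm sum of replicate 1 it was 1.41 (adjusted p = 0.443). It was also not called with all 179 oocytes (1.48, adjusted p = 0.146), and leaving out 1 of 4 other sums (60-69 μm of either replicate, 80-89 μm or 90-99 μm of replicate 2) gave 1.73 to 1.79 with adjusted p between 0.0503 and 0.0580. It stayed called without the 8 oocytes of low CALM share (1.74, adjusted p = 0.0410), without the deepest 100-109 μm oocyte, which held 52.9% of the counts of its sum (1.81, adjusted p = 0.0340), with CALM counts added (1.75, adjusted p = 0.0410) and with DESeq2 (1.79, adjusted p = 0.00149). The TMM factor of the 110-119 μm sum of replicate 1 was 0.858, the lowest of the 16, and the median summed level of the blood and immune genes, mostly CSF1R, was 36.9 CPM at 110-119 μm against 117 CPM at 100-109 μm. The median depth in replicate 1 was 627581 counts per oocyte at 100-109 μm and 2775300 at 110-119 μm. In replicate 2 it was 1352970 and 1332590. The part of the TMM factor, these genes and depth in the result was not tested.

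From 110-119 to >120 μm CALM2 was lower in both replicates. Its summed level went from 7783 to 2562 CPM in replicate 1 and from 3963 to 3132 CPM in replicate 2. Single oocytes of the 2 groups overlapped, with 2 of 10 and 3 of 4 of the >120 μm oocytes of replicates 1 and 2 below all of the 110-119 μm oocytes. The fitted log2 fold change of -1.14 (SE 0.42, adjusted p = 0.427) did not pass the threshold, in a comparison in which 0.0071% of genes were called, and it did without the 110-119 μm sum of replicate 2 (-1.86, adjusted p = 0.0217).

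Up to 109 μm no step of CALM2 passed the test. CALM2 differed by 0.10 (SE 0.41) on the log2 scale for 60-69 against <60 μm, -0.24 (SE 0.36) for 70-79 against <70 μm and -0.29 (SE 0.41) for 70-79 against 60-69 μm. It was 0.34 (SE 0.37) for 80-99 against 70-79 μm, -0.02 (SE 0.41) for 90-99 against 80-89 μm and -0.54 (SE 0.37, adjusted p = 0.474) for 100-109 against 80-99 μm. The share of genes called was 0.0142% in the first and 0.135% in the second of these. Within replicates 1 and 2 the log2 differences had opposite signs at 60-69 against <60 μm (-0.14 and 0.39), 80-99 against 70-79 μm (-0.14 and 0.72) and 90-99 against 80-89 μm (0.15 and -0.12). The steps of 70-79 against <70 μm, 70-79 against 60-69 μm and 100-109 against 80-99 μm were downward in both, the last by 0.50 and 0.57 on the log2 scale.

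From the smallest to the largest oocytes CALM2 did not differ beyond its error. The summed level was 2443 CPM below 60 μm and 2562 CPM at >120 μm in replicate 1, and 2417 and 3132 CPM in replicate 2. The log2 fold change was 0.20 (SE 0.41, adjusted p = 0.773), with a 95% interval of -0.61 to 1.02, so that a level between 0.655-fold and 2.02-fold lay within it, and 19.2% of all genes were called in this comparison. CALM2 as log2(CPM + 1), centred per replicate, was also set against diameter. Over all oocytes of the filtered set Pearson's r was 0.31 (0.43 in replicate 1, 0.12 in replicate 2). Over the oocytes of 60 μm and more it was 0.36 (0.48 in replicate 1, 0.03 in replicate 2). Over the oocytes below 110 μm (75 of replicate 1, 57 of replicate 2) it was -0.03 (-0.16 in replicate 1, 0.13 in replicate 2).

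Other genes of the family were set beside CALM2 in the same oocytes. CALM3, which encodes the same protein, was at 85.7 ± 29.04 CPM (SD, n = 18) at 100-109 μm and 83.8 ± 51.1 CPM (n = 19) at 110-119 μm, with a log2 fold change of -0.15 (SE 0.26, adjusted p = 0.744). CALM, whose split from CALM2 differed between replicates, had a log2 fold change of 2.06 (SE 0.42, adjusted p = 0.0304), while CALML4, a calmodulin-like gene, had 1.25 (SE 0.56, adjusted p = 0.166). CALM3 and CALML4 were called in none of the 9 comparisons, and a difference between their changes and that of CALM2 was not tested.

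The spread of CALM2 among oocytes of 1 group and replicate was set beside that of CALM3. The coefficient of variation was higher for CALM2 in 13 of 16 such sets, for example 68.4% against 31.9% at 70-79 μm of replicate 1 and 70.8% against 23.5% at >120 μm of replicate 2. It was lower for CALM2 at 90-99 μm in both replicates (41.97% against 55.5%, and 38.9% against 62.4%) and at 110-119 μm of replicate 1 (54.4% against 55.1%). The replicate 1 sets of 60-69, 70-79 and 80-89 μm include the oocytes of low CALM share.

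The 2 members followed each other weakly over all oocytes of the filtered set, with Pearson's r of 0.28 and Spearman's rho of 0.28 on replicate-centred log2(CPM + 1). These values and the next include the <60 μm oocytes, whose absent counts chose CALB1. The genes with a symbol most like CALB1 by Pearson's r were ASPM (0.66), a spindle pole gene, AGPS (0.65), an enzyme of ether lipid synthesis, CASP1 (0.63), the caspase of the inflammasome, KCNH5 (0.63), a potassium channel, and COPS4 (0.62), a subunit of the COP9 signalosome. Their r was between 0.49 and 0.62 in replicate 1 and between 0.66 and 0.84 in replicate 2. Over the oocytes of 60 μm and more alone, a choice made after the data were seen, the r was 0.55 to 0.61 for these 5 genes and 0.30 between the 2 members. There 3 of the 5 (ASPM, COPS4 and CASP1) were again among the 5 named genes of highest r, with CKAP2 (0.57) and CDK7 (0.56) in place of the others. ASPM went from a mean of 98.7 CPM below 60 μm to 286.2 CPM at 110-119 μm, and KCNH5 from 2.88 to 61.4 CPM, both present below 60 μm where CALB1 was at 0.

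Those most like CALM2 were ARL14EP (0.92), CRIPT (0.91), BRIX1 (0.90), ABCE1 (0.89) and ALKBH1 (0.86), among them a ribosome biogenesis factor (BRIX1) and a ribosome recycling factor (ABCE1). Their r was between 0.88 and 0.95 in replicate 1 and between 0.76 and 0.86 in replicate 2. With both replicates together all 5, and CALM2, had their highest mean at 110-119 μm, with ARL14EP at 679 CPM at 100-109 μm, 1863 CPM at 110-119 μm and 1243 CPM at >120 μm. Only the 3608 of 21218 IDs that were paired with a symbol could be named, 80.3% of them with a symbol that begins with A, B or C, and these points share libraries and depth.

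The other genes of calcium handling were counted in lists of which 100 of 140 members could be paired and 77 were tested. In 110-119 against 100-109 μm 4 of 77 rose and 0 fell, against backgrounds of 1.89% called higher and 1.99% lower. The median log2 fold change was -0.20 over the lists and -0.06 over all genes. The 4 were CALM2, CALM and the centrins CETN3 (1.74, SE 0.42, adjusted p = 0.0396) and CETN4 (1.68, SE 0.40, adjusted p = 0.0379), EF-hand proteins of centrioles. Since the counting of reads that fit both CALM2 and CALM is not stated, their calls may not be separate. None of the 4 was called without the replicate block or with all 179 oocytes, where 0 and 2 of all genes were called in place of 547. Their calls also depended on the 100-109 and the 110-119 μm sums of replicate 1, as did those of genes overall. In the other 7 comparisons of successive sizes edgeR called 0 members other than CALB1, 2 to 10 members per comparison had an unadjusted p under 0.05, and DESeq2 called 0 or 1.

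Between the smallest and the largest oocytes 5 of 76 tested members other than CALB1 rose and 10 fell, against backgrounds of 9.36% and 9.8%, with a median of -0.11 over these members and -0.12 over all genes. Without the replicate block 0 of them were called, and 6 without the replicate 1 sum below 60 μm. Leaving out the replicate 1 or the replicate 2 sum at >120 μm gave 5 and 9. The calls over all 14087 genes fell too, from 2700 to 81 without the block. They fell to 1093, 1125 and 1518 without these sums, in the same order. A difference between the members and all genes in this fall was not tested. Of 12 calmodulin-dependent kinases and regulators, CAMK2G, the gamma subunit of calmodulin-dependent kinase II, rose by 1.63 (SE 0.31, adjusted p = 0.00153) and the others were not called. Of 6 calcium pumps, the plasma membrane pump ATP2B4 rose by 1.93 (SE 0.50, adjusted p = 0.0111) and the Golgi pump ATP2C1 fell by 1.25 (SE 0.40, adjusted p = 0.0361). Of 15 voltage-gated channel subunits, CACNA2D2 rose by 1.75 on the log2 scale, and CACNA1D fell by 1.18 and CACNG3 fell by 2.43.

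Of 5 lumenal proteins, the endoplasmic reticulum chaperone calreticulin (CALR) fell by 0.88 (SE 0.27, adjusted p = 0.0306). Among 10 other EF-hand genes CETN3 rose by 1.37, CHP1 fell by 0.84 and CIB2 fell by 1.33. Of 10 calpains, which are calcium-dependent proteases, CAPN2 fell by 1.43 (SE 0.37, adjusted p = 0.0110). Of 9 annexins, which bind membranes in the presence of calcium, ANXA2 rose by 2.85, and ANXA3 fell by 2.91, ANXA4 fell by 2.16 and ANXA7 fell by 1.01. Of 21 listed store and release genes 5 could be paired and 4 were tested, with 0 calls in this comparison and in the other 8 by edgeR. Of these 4, 1 had an unadjusted p under 0.05 between the smallest and the largest oocytes, as had 4723 of 14087 genes overall. None of the IP3 receptors, ryanodine receptors, STIM and ORAI genes of that list could be paired, so they were not analysed here.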

How the data were processed

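Polyadenylated mRNA of 179 single oocytes was amplified with oligo-dT primers and sequenced in 2 library batches. Trimming with Trim Galore (version 0.6.6), alignment with HISAT2 to bosTau 9 and counting per gene with SeqMonk were done by the authors, whose table holds raw counts with 1 column per oocyte. Of its columns 0 were left unused. Treatment of reads with several alignments and of strand is not given in the sources used here. The 165 oocytes of the filtered set of the study were used. Counts of gene IDs on more than 1 line were added.

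Counts were summed per size group and replicate into 16 sums of 4467434 to 46545515 counts. Genes were kept by filterByExpr (minimum count 10, minimum total 15), scaled by TMM and tested with edgeR (version 4.0.16), with the replicate as a block. The replicate is the library batch, and sums of 1 replicate deviated together (28 pairs of size groups, correlations 0.398 to 0.694). A standard error is the size of a fold change divided by the square root of F, and 95% intervals are 1.96 SE. The fit was tested on simulated data, with the outcome not reported here. Alternatives were fits without the block, RLE scaling, DESeq2 (version 1.42.0), no filter, single oocytes as units, all 179 oocytes, the first line of an ID and leaving out each sum, and, added after the data were seen, leaving out the 8 oocytes of low CALM share or the deepest oocyte and adding CALM to CALM2. Levels per oocyte are CPM on the TMM effective library size. Only calcium genes paired with an ID were counted. Named genes were the members, the other calmodulin genes (1 gene of this rule is not reported here), called genes of the calcium lists (up to 4 per list) and the 5 genes of highest Pearson's r with each member. The members and lists were chosen with earlier results of these data known. No sequence or coordinate is given, since the reference table at hand is of another assembly (ARS-UCD2.0, against ARS-UCD1.2).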

Additional observations from a re-analysis of the deposited data

Results flagged for a closer look

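In 2 of 24 sets of 4 to 10 oocytes of 1 size group and replicate (CALB1, CALM2 and CALM3), the highest oocyte stood far from the others by Dixon's criterion, which chance meets in about 1 in 20 sets. They were CALB1 at 48.9 CPM among 8 oocytes of 80-89 μm of replicate 2 and CALM2 at 4496 CPM among 7 oocytes of 70-79 μm of replicate 2. Among the 14 deposited oocytes outside the filtered set, which entered only the setting with all 179 oocytes, CALB1 had 91 counts in a replicate 1 oocyte of 139.09 μm and 154 counts in a replicate 2 oocyte of 106.5 μm, both above the 0 counts of the <60 μm oocytes.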

How the results depend on the processing

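The CALM2 and CALB1 changes not named here kept their direction and their side of the threshold under every setting run, the fit without the replicate block among them. For CALM2, 60-69 against <60 μm (0.10) was -0.023 with single oocytes as units, -0.043 with all 179 oocytes and -0.13 to 0.37 when 1 sum was left out. For 90-99 against 80-89 μm (-0.02) it was 0.11 with single oocytes and -0.44 to 0.58 (0.58 without 80-89 μm replicate 2, 0.28 without 90-99 μm replicate 1 and 0.00332 without 110-119 μm replicate 2). For 110-119 against 100-109 μm it was 1.58 without the replicate block, 1.48 with all 179 oocytes and 0.74 to 2.48 when 1 sum was left out, called in 10 of 16 such fits. For >120 against 110-119 μm it was -0.92 with single oocytes (adjusted p = 0.0368) and -1.86 to -0.13 when 1 sum was left out, and for >120 against <60 μm 0.70 with single oocytes (adjusted p = 0.0364). CALB1 at 70-79 against 60-69 μm ranged from -0.47 to 2.80 (-0.42 without 60-69 μm replicate 1) and at 90-99 against 80-89 μm from -0.12 to 0.60 when 1 sum was left out. With single oocytes as units 3, 2, 1, 17, 2 and 29 calcium genes were called at 70-79 against <70, 80-99 against 70-79, 100-109 against 80-99, 110-119 against 100-109, >120 against 110-119 and >120 against <60 μm, in place of 0, 0, 0, 4, 0 and 15. DESeq2 called 1 at 100-109 against 80-99 μm and 10 at 110-119 against 100-109 μm. Without the block 0 were called at 110-119 against 100-109 and >120 against <60 μm, and with all 179 oocytes 0 at the former. Leaving out 1 sum gave 0 to 2 at 100-109 against 80-99, 0 to 8 at 110-119 against 100-109, 0 to 4 at >120 against 110-119 and 5 to 16 at >120 against <60 μm. Over all genes, 547 calls at 110-119 against 100-109 μm became 0 to 1478 when 1 sum was left out, 0 without the block, 2 with all 179 oocytes, 308 with the first line of an ID, 1317 without the filter, 1967 with DESeq2 and 4062 with single oocytes, and 2700 at >120 against <60 μm became 1093 to 2801 when 1 sum was left out, 81 without the block and 4451 with single oocytes. At the other steps the settings, leaving out 1 sum among them, gave 0 to 52 (main 2), 0 to 857 (19), 0 to 120 (0), 0 to 292 (0), 0 to 679 (70) and 0 to 518 (1) calls. The share of oocytes with CALB1 was 24%, 30.4%, 54.2%, 61.9%, 66.7% and 64.3% with at least 10 counts in the 60-69 μm and the next 4 groups and at >120 μm, and 37.5% and 45.2% at 250000 counts per oocyte at 60-69 and 70-79 μm. In replicate 2 alone it was 87.5% at 60-69, 42.9% at 70-79, and 100% at 80-89, 110-119 and >120 μm. The diameter of onset was 84.98 μm with at least 10 counts, 77.2 μm at 250000 counts and 60.87 μm in replicate 2 alone. The cause of these changes was not tested. All mean levels moved by less than 1 SD. CALB1 counts were low, at 5 or fewer per oocyte in replicate 1 at 60-69 μm.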

Other observations

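The 14 deposited oocytes outside the filtered set had CALB1 counts in 3 cases. Beside those of 139.09 and 106.5 μm, at 24.8 and 78.7 CPM of their plain totals, 1 oocyte of 77.19 μm had 2 counts (0.834 CPM). An oocyte of 102.46 μm with 1830157 counts and one of 61.5 μm with 1084521 counts had none. Most of the other oocytes with none were shallow, with as few as 10 counts at 72.11 μm, but among the 5 <60 μm oocytes of this kind 2 were deep, with 2487675 counts at 48.4 μm and 4933709 counts at 53.97 μm.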
